A study of Rattus norvegicus with 54 samples.

Results

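Troglitazone in obese liver was described from 6 of the 54 arrays of the study. They are the 3 liver arrays of obese male Zucker rats given troglitazone and the 3 liver arrays of obese rats without a ligand, compared as log2(signal + 20) for each probe set. All 6 hold RNA of rats of genotype fa/fa, and the untreated rats received normal chow. Each array held RNA pooled from 2 rats, so 3 arrays stand for 6 rats, and the spread within a group is that between pools. The other liver groups, also of 3 arrays, were lean fa/+ rats on normal chow and fa/fa rats given pioglitazone, rosiglitazone or AG035029. Epididymal adipose tissue and gastrocnemius muscle were measured in the same 6 groups. Dose, route, duration and age are not stated in the labels, so the 4 ligands cannot be matched for dose. The labels also give no separate vehicle group.

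Troglitazone is a thiazolidinedione, a class of agonists of the nuclear receptor PPARgamma that raise insulin sensitivity and act largely through fat cells. It carries a chroman ring like that of vitamin E, and it also binds the pregnane X receptor, PXR, in liver cells. PXR and its relative CAR switch on drug-metabolising enzymes such as the Cyp3a cytochromes P450. The drug was withdrawn from use in people because of liver injury. The fa mutation disables the leptin receptor in every tissue, and fa/fa rats become obese, insulin resistant and fatty in the liver.

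The liver identity of the arrays was checked on 16 hepatocyte markers, and 1 troglitazone array stood apart for transcripts of another tissue. Albumin (Alb) gave signals of 97838, 106169 and 81874 on untreated arrays 1, 2 and 3 and 82086, 75548 and 71874 on troglitazone arrays 1, 2 and 3, the order used throughout. The skeletal muscle actin Acta1 gave 25.2, 46.9 and 46.2 on the untreated arrays and 102, 316 and 13627 on the troglitazone arrays, so that array 3 was far above the other 17 liver arrays. The fast muscle light chain Myl1 gave 154, 126 and 77.3 untreated and 96.6, 190.4 and 4253 with troglitazone. Of 16 skeletal muscle markers on the array, 12 were highest of all 18 liver arrays on troglitazone array 3. Their summed signal was 11593 to 12571 untreated, and 12299.5 to 42478 with troglitazone. The summed signal of 10 adipocyte markers was 22302 to 26706 untreated and 22312 to 25356 with troglitazone, with array 3 the lowest of its group. These markers include Pck1, whose own liver signals, given below, make up most of that sum, so the sum cannot show fat cells. Of these markers Fabp4 was high on array 3 (376, against 5.9 to 16 untreated, and 346 on 1 AG035029 array), while Plin1 (26.2) and Lep (15.5) were not. Troglitazone array 2 had the highest signal of the red cell gene Hbb among the 18, 33051, against 11273 to 19942 untreated. The summed signal of 20 lymphocyte markers was lower on all troglitazone arrays (3418 to 4655) than on all untreated arrays (5112 to 6096). Such a gap was seen for 14.5% of all tested probe sets. Of the 20 markers 9 were tested and 0 called, with 8 below 0 and 1 above. Cd74 gave 1397, 1598 and 1565 untreated and 1079, 818 and 735 with troglitazone. The T cell gene Cd3e gave 40.8, 43 and 87.1 and 35, 103 and 155, groups that overlap. Of the genes in the 11 marker lists, 1 was called, the hepatocyte gene Apoa1, which fell. Many markers were below the filter, with 3 of 16 skeletal muscle, 5 of 10 adipocyte and 1 of 6 neutrophil markers tested. Over all 7079 tested genes 26 rose and 18 fell, so a count on lists this short cannot show whether cell numbers held. In bulk liver, fewer cells of a type and less RNA per cell cannot be told apart. The part of these transcripts in the results was not tested, and results are given below with and without troglitazone array 3.

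**Figure D1:**
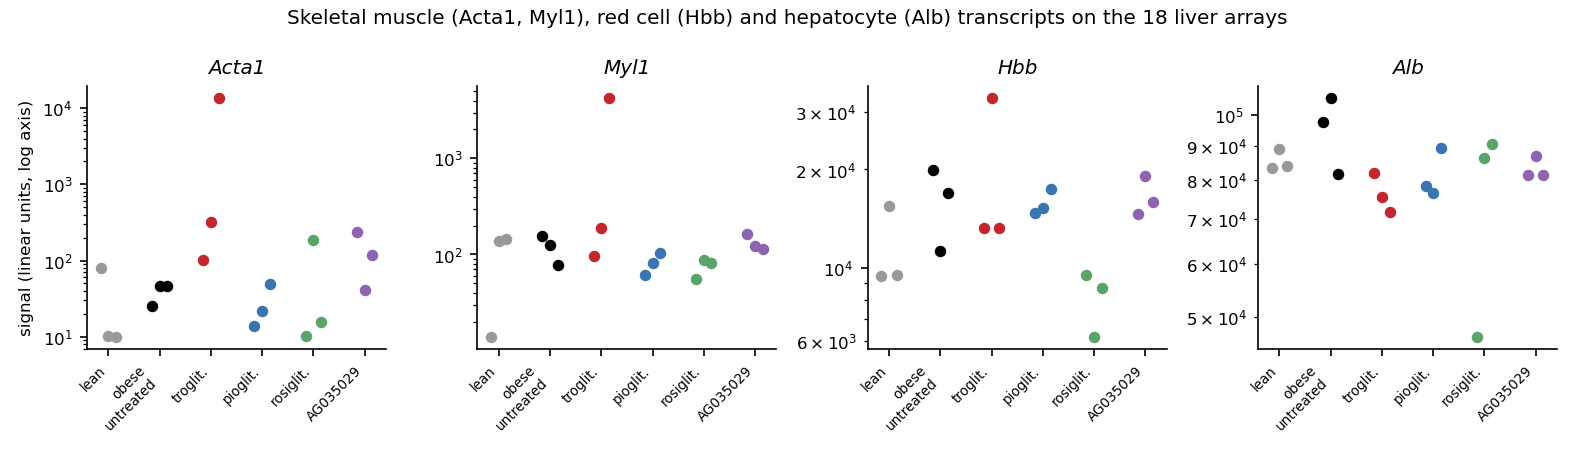
Signals (linear units, log axis) of 2 skeletal muscle genes, 1 red cell gene and 1 hepatocyte gene on each of the 18 liver arrays, grouped by treatment with 1 point per array. Acta1 and Myl1 on troglitazone array 3, at 13627 and 4253, lie above all other liver arrays, and Hbb is highest on troglitazone array 2.

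Few probe sets passed the test for a change with troglitazone, and the genes that rose included several drug-metabolising and sterol-making enzymes. A probe set is called here when its Benjamini-Hochberg adjusted p from limma is below 0.05. Of 9519 tested probe sets 63, or 0.662%, were called, 37 higher (0.389%) and 26 lower (0.273%) with troglitazone. They represent 48 named genes, 28 that rose and 20 that fell, and 13 unnamed probe sets, 7 that rose and 6 that fell. On all 63 the 3 troglitazone arrays lay wholly above or below the 3 untreated arrays, which was so for 1381 probe sets (14.5%) of all those tested. At an unadjusted p under 0.05 there were 948, so the count of calls does not show how many transcripts changed. The median change over all tested probe sets was -0.018 in log2, and the 95% interval of a single probe set had a median reach of 0.55 to either side. Without troglitazone array 3 there were 26 calls (15 higher, 11 lower), 25 of them among the 63. All 63 kept their direction without it, with sizes 0.752 to 1.25 times those with all arrays. The count was also sensitive to other arrays: it was 96 without untreated array 2, 34 without untreated array 1, 20 without untreated array 3 and 23 without troglitazone array 2. Of the 39 named called probe sets, 18, 7 and 27 lost their call without untreated array 1, 2 or 3, and 12, 24 and 22 without troglitazone array 1, 2 or 3. Igfbp1, Fmo1, Por, Tsc22d1, Tnfaip2, Pygl and Tm7sf2 kept it under every array left out and every other setting tried.

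**Figure D2:**
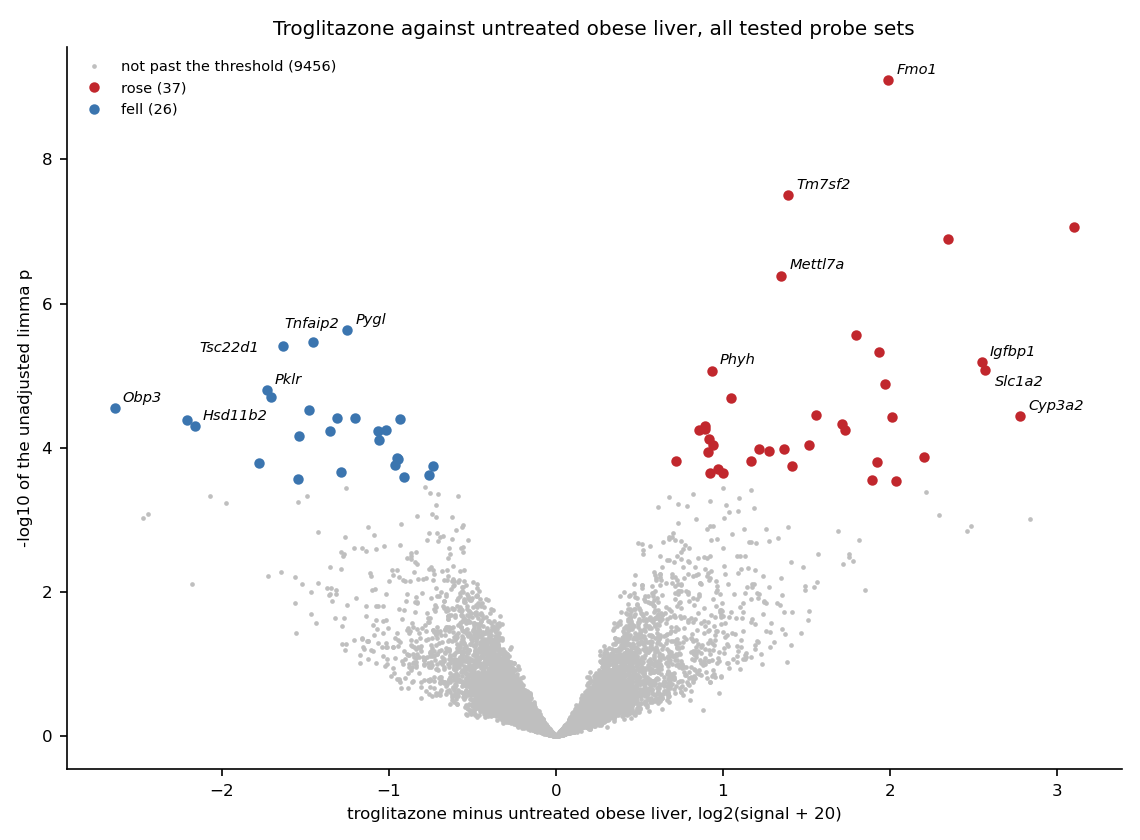
Change in log2(signal + 20) between troglitazone and untreated obese liver (x axis) against -log10 of the unadjusted limma p (y axis) for 9519 probe sets. The 37 that rose are red and the 26 that fell blue, Fmo1 has the smallest p, and the unlabelled red point farthest right is an unnamed probe set.

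On the list of PXR and CAR target genes 6 rose: Cyp3a2, Gadd45b, Por, Cyp3a18, Nr1i3 and Ces2c. Cyp3a2, a P450 that is higher in male rats and oxidises steroids and drugs, gave 4066, 1015 and 559 on the untreated arrays and 7206, 11219 and 9674 with troglitazone. All troglitazone arrays were higher, and untreated array 1 was the highest of its group. The rise was 6.85-fold (log2 2.78 ± 0.53, adjusted p = 0.0152). Lean livers gave 9645, 13153 and 9673, so the troglitazone arrays lay near lean levels and the untreated obese arrays below them. Cyp3a18, another Cyp3a enzyme, rose by 1.56 ± 0.29 (adjusted p = 0.0152) from 3232, 3276 and 1252 to 6882, 5425 and 9196. Por, the reductase that supplies electrons to all microsomal P450s, gave 1465, 3289 and 1387 untreated and 5619, 7155 and 7145 with troglitazone, with untreated array 2 well above the other untreated arrays. It rose by 1.80 ± 0.28 (adjusted p = 0.00366), and a second probe set rose by 1.93 ± 0.31 (adjusted p = 0.00449). Nr1i3, which encodes CAR, gave 229.6, 426 and 234 untreated and 861, 722 and 724 with troglitazone, a rise of 1.37 ± 0.28 (adjusted p = 0.0235). Also called were the carboxylesterase Ces2c (1.27 ± 0.27, adjusted p = 0.0244) and Gadd45b, a stress-inducible partner of CAR (2.20 ± 0.47, adjusted p = 0.0281). PXR itself (Nr1i2) gave 1435, 1604 and 902 untreated and 1901, 1553 and 1505 with troglitazone, groups that overlap (0.36 ± 0.18, adjusted p = 0.54).

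Of 29 tested genes on the PXR and CAR list 0 fell, and the median change was 0.35. The median over all 7079 genes was -0.022, and 26 of them rose and 18 fell. The list was chosen with earlier results of these data known, so this contrast is descriptive and gives no independent support. The same holds for the other lists. The 6 genes of the PXR and CAR list that rose include Nr1i3, which is the receptor and not a target in the strict sense. Genes of that list without a call ranged on both sides of 0, with 11 of the 29 below it. Cyp3a9 was just short of the threshold at 1.0 ± 0.23 (adjusted p = 0.0523), with 5919, 4646 and 2364 untreated and 6557, 9597 and 8353 with troglitazone. Cyp3a9, Ces2c, Mettl7a, Msmo1, Insig1, Slc2a5, Gda, Gas5, Fahd1 and C8h11orf71 lie outside the rule for named genes and were chosen after their values were seen. Without troglitazone array 3, Por was the list's gene that stayed called (1.74, adjusted p = 0.0217), and the list's median was 0.12. Cyp3a2 then stood at 2.74 (adjusted p = 0.0655), Cyp3a18 at 1.36 (adjusted p = 0.0842), Nr1i3 at 1.41 (adjusted p = 0.0831), Ces2c at 1.19 (adjusted p = 0.124) and Gadd45b at 2.09 (adjusted p = 0.129). The calls of Cyp3a2 and Cyp3a18 were also lost without untreated array 3, at 2.17 and 1.10 (adjusted p = 0.0935 and 0.0709), and that of Cyp3a2 without troglitazone array 2, at 2.63 (adjusted p = 0.0835). With each of the 6 arrays left out in turn, the call was lost in 3 of 6 fits for Cyp3a2, 2 for Cyp3a18, 0 for Por, 5 for Nr1i3, 5 for Ces2c and 5 for Gadd45b.

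The promoters of 2 Cyp3a genes are shown because, of 27457 rat promoters, only they held the exact spelling of a direct repeat that was searched. PXR is known to act on Cyp3a genes through this repeat, so matches in Cyp3a promoters are no independent evidence of PXR action. Other spellings of the repeat were not searched, and whether other promoters hold a PXR site was not tested. Promoters were RefSeq windows of 300 bases, 250 before and 50 after the gene start, in build GRCr8. Of the 48 called genes 44 had one, 27 that rose and 17 that fell. The direct repeat DR-3, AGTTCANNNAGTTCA on either strand, was found in 1 of the 27, Cyp3a2, in 0 of the 17, and in 0.00728% of all windows. The other window is that of Cyp3a23-3a1, a Cyp3a gene whose signals were 18947, 15562 and 11629 untreated and 22225, 25934 and 26105 with troglitazone. Those groups do not overlap, but Cyp3a23-3a1 was not called (0.71 ± 0.20, adjusted p = 0.138). The windows lie at chr12:14343808-14344107 for Cyp3a2 and chr12:14398754-14399053 for Cyp3a23-3a1, both on the minus strand. The repeat is read on the opposite strand of the gene, from 131 bases upstream in Cyp3a2 and 144 in Cyp3a23-3a1. The capitals mark the 2 arms of the repeat.
Cyp3a2: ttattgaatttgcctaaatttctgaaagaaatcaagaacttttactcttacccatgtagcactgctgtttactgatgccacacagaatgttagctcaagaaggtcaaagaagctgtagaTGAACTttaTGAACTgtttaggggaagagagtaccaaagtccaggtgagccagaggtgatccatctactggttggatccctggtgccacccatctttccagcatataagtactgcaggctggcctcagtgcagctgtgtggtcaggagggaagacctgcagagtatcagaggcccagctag
Cyp3a23-3a1: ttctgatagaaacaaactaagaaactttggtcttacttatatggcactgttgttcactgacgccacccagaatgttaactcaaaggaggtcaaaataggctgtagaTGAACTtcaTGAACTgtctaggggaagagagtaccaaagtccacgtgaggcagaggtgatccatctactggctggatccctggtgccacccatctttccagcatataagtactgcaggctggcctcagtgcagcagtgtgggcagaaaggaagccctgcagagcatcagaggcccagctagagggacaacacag

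Further motifs were searched on both strands of the same windows. The everted repeat ER-6, TGAACTNNNNNNAGGTCA, was in 0 of the 27 windows of genes that rose and 0% of all windows. The PPAR-type repeat DR-1, AGGTCANAGGTCA, was in 0 of the 27 and 0 of the 17 (0.0583% of all). The sterol element TCACNCCAC was likewise in 0 of both (1.13% of all). The half-site AGGTCA, which is part of DR-1 and ER-6, was in 5 of the 27 (Por, Eif4ebp3, Cyp3a2, Cyp1a2 and Acot4), in 1 of the 17 (Igf1) and in 15.7% of all windows. CCAAT was in 15 of the 27, in 6 of the 17 and in 37.7% of all. A match is a run of letters in this window and no measured binding.

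Beyond the PXR and CAR list, troglitazone raised further oxidising enzymes, and 0 tested P450s were called lower. Fmo1, a flavin monooxygenase that oxidises drugs at nitrogen and sulphur, gave 589, 781 and 512 untreated and 1980.3, 2847 and 2812 with troglitazone, and its 3 troglitazone arrays lie clear of all untreated ones. It had the smallest p of all 9519 probe sets, with a rise of 3.97-fold (log2 1.99 ± 0.18, adjusted p = 7.47e-06), and lean arrays gave 2039, 1868 and 1678. Among all 7079 genes 26 rose, 18 fell and 9.97% had an unadjusted limma p under 0.05. On the list of other P450 genes 2 of 19 rose, 0 fell and the median was 0.26. They were Cyp1a2, which oxidises caffeine and aromatic amines (1.0 ± 0.22, adjusted p = 0.0368), and Cyp2j4, an arachidonic acid epoxygenase (0.91 ± 0.19, adjusted p = 0.0245). Among 34 conjugating enzymes 1 was called: Inmt, an amine methyltransferase, with 419, 392 and 286 untreated and 1116, 4018 and 813 with troglitazone (2.04 ± 0.47, adjusted p = 0.0439). Its array 2 is far above arrays 1 and 3, and without that array the rise was 1.35 (adjusted p = 0.255). Its call was lost in 11 of the 17 alternatives. The conjugating enzymes' median was 0.017. Mettl7a, a putative methyltransferase of lipid droplets and the endoplasmic reticulum, rose by 1.35 ± 0.18 (adjusted p = 0.000775), from 439, 615 and 475 to 1194, 1298 and 1474. Of 21 genes of the NRF2 antioxidant response 0 were called, with a median of 0.017 and 2 at an unadjusted p under 0.05. Its reporters Hmox1 and Nqo1 were at 0.16 ± 0.23 and 0.28 ± 0.35 (adjusted p = 0.88 and 0.858), and both groups of arrays overlap for each. When troglitazone array 3 was left out, Fmo1 stayed called (1.91, adjusted p = 0.000175), as did Inmt (2.49, adjusted p = 0.0262) and Mettl7a (1.27, adjusted p = 0.0108), while Cyp1a2 was at 1.01 and Cyp2j4 at 0.84 (adjusted p = 0.118 and 0.131). Over the 6 fits that leave out 1 array each, calls were lost in 0 of 6 fits for Fmo1, 0 for Mettl7a, 5 for Inmt, 5 for Cyp1a2 and 5 for Cyp2j4.

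**Figure D3:**
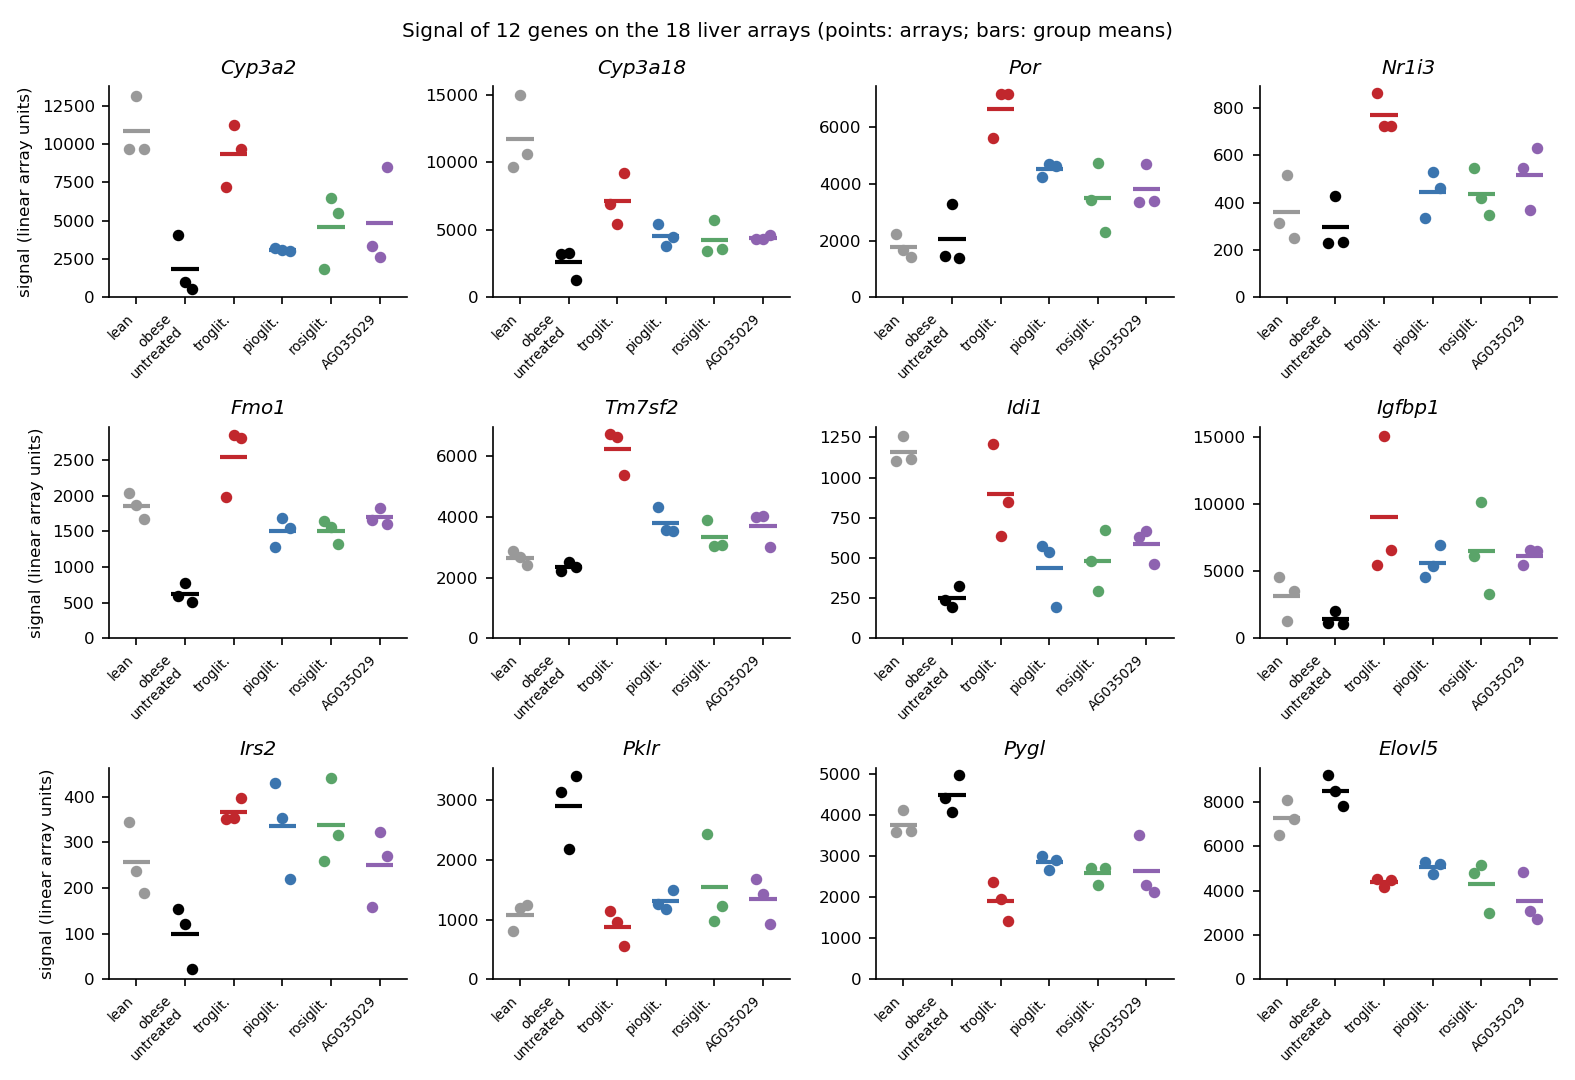
Signals (linear array units) of 12 called genes on the 18 liver arrays, with 1 point per array and a bar at each group mean. Means for Cyp3a2 are 1879.7 untreated, 9366 with troglitazone and 10824 lean, and each gene's troglitazone points lie clear of its untreated obese points.

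Of the enzymes of cholesterol synthesis 3 rose with troglitazone and 0 fell. Tm7sf2, a sterol reductase of the late pathway, gave 2226, 2509 and 2346 untreated and 6732, 6620.4 and 5373 with troglitazone. The arrays within each group lie close together and the groups far apart, a 2.62-fold rise (log2 1.39 ± 0.16, adjusted p = 0.000149). Idi1, the isopentenyl diphosphate isomerase of the early pathway, gave 242, 194 and 323 untreated and 1209, 638 and 847 with troglitazone (1.73 ± 0.34, adjusted p = 0.0159), and lean livers gave 1103, 1261 and 1117. Its other probe set moved the same way without a call (2.21 ± 0.52, adjusted p = 0.0574). Cyp51, the lanosterol demethylase, rose by 1.22 ± 0.25 (adjusted p = 0.0235) from 2136, 1538 and 1705 to 4673, 2944 and 5222, and its other, dimmer probe set was not called (0.69 ± 0.30, adjusted p = 0.45). Of 18 tested genes on the list 14 had an estimate above 0 and the median was 0.37. Among all 7079 tested genes 26 rose, 18 fell and 46.8% were above 0. Not called were squalene epoxidase Sqle (2.29 ± 0.59, adjusted p = 0.0908), with 95, 12.1 and 43.2 untreated and 327, 210.2 and 322 with troglitazone, and Msmo1 (1.39 ± 0.37, adjusted p = 0.114), although neither gene's groups overlap. Insig1, which holds the sterol sensor SCAP in the endoplasmic reticulum, was at 0.95 ± 0.38 (adjusted p = 0.386). In the fit without troglitazone array 3, Tm7sf2 stayed called (1.49, adjusted p = 0.000309), Idi1 was at 1.75 and Cyp51 at 1.05 (adjusted p = 0.0684 and 0.156), and the list's median was 0.55. Leaving out 1 of the 6 arrays at a time ended the call in 0 of 6 fits for Tm7sf2, 4 for Idi1 and 4 for Cyp51.

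Bile acid genes had mostly higher estimates and 0 calls. Of 23 genes for bile acid synthesis and transport 0 were called and 19 were above 0, with a median of 0.29 and 6 at an unadjusted p under 0.05, all higher. Leaving out troglitazone array 3 gave a median of 0.26. Among all 7079 genes 46.8% were above 0 and 9.97% had an unadjusted limma p under 0.05. The bile salt export pump Abcb11, which moves bile salts out of hepatocytes and is inhibited by troglitazone conjugates, gave 3855, 4251 and 4019.8 untreated and 6958, 5046 and 5569 with troglitazone. Its troglitazone arrays were all higher, but without a call (0.52 ± 0.15, adjusted p = 0.172). Cyp8b1, which makes cholic acid, was at 1.15 ± 0.33 (adjusted p = 0.14), and Slc27a5, the bile acid ligase, at 0.73 ± 0.19 (adjusted p = 0.107).

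Of the fatty acid synthesis genes 1 fell with troglitazone, and most others had lower estimates. Elovl5, an elongase of polyunsaturated fatty acids, gave 9203, 8489 and 7820.4 untreated and 4514, 4167 and 4496 with troglitazone, tight groups that do not overlap (-0.95 ± 0.20, adjusted p = 0.0281). Its dimmer probe set had nearly the same change without a call (-0.95 ± 0.44, adjusted p = 0.492). Of 18 tested genes 0 rose, 16 were below 0 and the median was -0.52. For all 7079 genes the median was -0.022, with 46.8% above 0, 26 that rose and 18 that fell. The desaturase Scd had the largest difference of the list, 23566, 21367 and 35786 untreated against 11068, 8419 and 2588 with troglitazone, and was not called (-2.07 ± 0.50, adjusted p = 0.0604). Its troglitazone array 3 was the lowest of all 6, and leaving that array out gave -1.44 (adjusted p = 0.349). Lean livers gave 1374, 4303 and 2632, close to troglitazone array 3 and below the other troglitazone arrays. Srebf1, the lipogenic transcription factor SREBP-1, was at -1.11 ± 0.36 (adjusted p = 0.239) and fatty acid synthase Fasn at -0.81 ± 0.41 (adjusted p = 0.53), both with overlapping groups. For Fasn, untreated array 3 (9096) stood above arrays 1 and 2 (2293 and 2838). The list's median without troglitazone array 3 was -0.49 and Elovl5 was at -0.96 (adjusted p = 0.085). Its call was lost in all 6 fits that leave out 1 array, with adjusted p from 0.0555 to 0.137.

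Among genes of stored and exported lipid 2 carboxylesterases rose, and 2 of 16 lipoprotein genes fell. Ces1d, a carboxylesterase that hydrolyses triglyceride in the hepatocyte, gave 1691, 5437 and 2432 untreated, with array 2 the highest, and 6436, 8608 and 9611 with troglitazone (1.52 ± 0.31, adjusted p = 0.0215). Ces1c, a secreted carboxylesterase, rose by 0.72 ± 0.16 (adjusted p = 0.0292). These were the 2 calls among 15 genes of triglyceride synthesis and lipolysis, whose median was 0.26, or 0.18 without troglitazone array 3. Among all 7079 genes 26 rose and 18 fell. Apoa4, an apolipoprotein of triglyceride-rich particles, gave 13955, 16876 and 16829 untreated and 6057, 8393 and 10869.6 with troglitazone (-0.95 ± 0.20, adjusted p = 0.029). Lean livers gave 7173, 5504 and 5867, a range that overlaps the troglitazone arrays and lies below the untreated obese ones. Apoa1, the main protein of high-density lipoprotein, fell by 0.76 ± 0.17 in log2 (adjusted p = 0.0381). Of the 16 lipoprotein genes 0 rose and 4 were above 0, with a median of -0.13, while 46.8% of all genes were above 0. Members of the Ces1 family are close in sequence, and probe sets of 1 may take up transcripts of another. Without troglitazone array 3, Apoa4 stayed called (-1.15, adjusted p = 0.0217), and Ces1d, Ces1c and Apoa1 were at 1.39, 0.74 and -0.59 (adjusted p = 0.118, 0.0842 and 0.238). Apoa4 lost its call without each of the other 5 arrays (adjusted p = 0.0554 to 0.146). With each of the 6 arrays left out in turn, the call was lost in 4 of 6 fits for Ces1d, 4 for Ces1c and 4 for Apoa1.

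The lists of PPARalpha and PPARgamma targets held 0 called genes in liver, and 3 peroxisomal enzymes outside them, given next, were called. Over all 7079 genes 26 rose and 18 fell, so 0 calls on lists this short does not show that the targets were unchanged. The count also depends on which genes each list holds. Pparg itself gave 524, 274 and 350.3 untreated and 258, 119 and 179.7 with troglitazone, lower on all troglitazone arrays without passing the test (-0.98 ± 0.31, adjusted p = 0.226). Ppara, at 20.6, 50.9 and 15.3 untreated and 30.7, 164 and 37 with troglitazone, was below the filter on low values and not tested. Of 18 PPARgamma targets of fatty liver 0 were called, with a median of 0.12 and 4 at an unadjusted p under 0.05. Among them the fatty acid transporter Cd36 was at 1.01 ± 0.42 (adjusted p = 0.405), with untreated 1290.2, 1952 and 492 and troglitazone 1955, 2906 and 1869.6, and the lipase inhibitor Angptl4 at -0.06 ± 0.38 (adjusted p = 0.979). Of 23 PPARalpha targets 0 were called, 17 were above 0 and the median was 0.52, or 0.58 without troglitazone array 3. Of the 23, 11 had an unadjusted limma p under 0.05, 10 of them higher, against 9.97% of all 7079 genes. The omega-hydroxylase Cyp4a1 was at 0.62 ± 0.25 (adjusted p = 0.388) and its relative Cyp4a3 at 0.73 ± 0.18 (adjusted p = 0.0706). The peroxisomal bifunctional enzyme Ehhadh was at 1.19 ± 0.30 (adjusted p = 0.0754), and Pdk4, which blocks pyruvate oxidation, at 1.81 ± 0.51 (adjusted p = 0.138). Leaving out troglitazone array 3 gave 0.68 (adjusted p = 0.257) for Cyp4a3 and 0.99 (adjusted p = 0.349) for Ehhadh.

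Of 17 genes of peroxisomal oxidation and biogenesis 3 rose and 0 fell, with a median of 0.19. Among all 7079 genes 26 rose, 18 fell, 46.8% were above 0 and 9.97% had an unadjusted limma p under 0.05. Phyh, which begins the breakdown of phytanic acid, gave 9459.9, 14221 and 10759 untreated and 21084, 22454 and 21280.3 with troglitazone. Its troglitazone arrays lie within 1 narrow range and above all untreated arrays (1.91-fold, log2 0.93 ± 0.16, adjusted p = 0.00623). Decr2, a peroxisomal reductase for unsaturated fatty acids, rose from 2361, 3214 and 2203 to 4607, 5273 and 4911 (0.94 ± 0.19, adjusted p = 0.0215). Acot4, a peroxisomal acyl-CoA thioesterase, rose from 416, 1036 and 487 to 1520, 2654 and 2866 (1.89 ± 0.43, adjusted p = 0.043), a call lost in 11 of the 17 alternatives. When troglitazone array 3 was left out, Phyh stayed called (0.94, adjusted p = 0.0258), and Decr2 and Acot4 were at 0.94 and 1.72 (adjusted p = 0.0842 and 0.208). Over the 6 fits that leave out 1 array each, calls were lost in 0 of 6 fits for Phyh, 4 for Decr2 and 4 for Acot4. Of 25 genes of mitochondrial fatty acid oxidation 0 were called, with 18 above 0, a median of 0.27 and 6 at an unadjusted p under 0.05, all higher. The carnitine acetyltransferase Crat had the largest difference there, 48.7, 274 and 214 untreated against 780, 871 and 1084 with troglitazone (2.46 ± 0.67, adjusted p = 0.122), and was at 2.33 (adjusted p = 0.356) without troglitazone array 3.

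**Figure D4:**
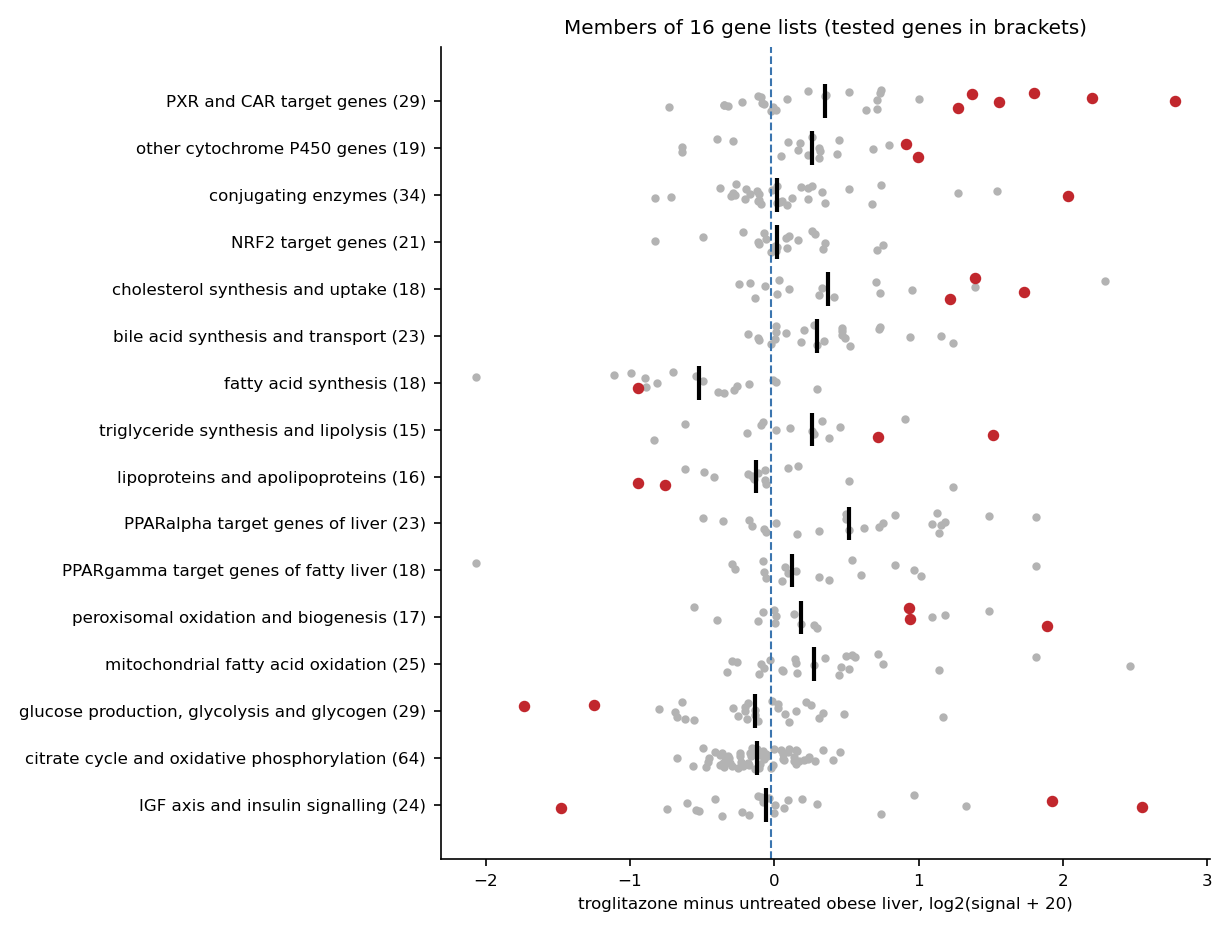
Change in log2(signal + 20) of each tested gene (points) in 16 gene lists, with called genes in red, the list's median as a black bar and the median of all 7079 genes as a dashed line at -0.022. The PXR and CAR list holds 6 red points, all to the right, the fatty acid synthesis list has its median at -0.52 with 1 red point to the left.

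A key enzyme of sugar use and one of glycogen breakdown fell. Pklr, the liver pyruvate kinase of glycolysis, gave 3132, 2187 and 3392 untreated and 1141, 954 and 553 with troglitazone (3.32-fold lower, log2 -1.73 ± 0.31, adjusted p = 0.00996). Lean livers gave 812, 1195 and 1240.4, a range that overlaps the troglitazone arrays and lies below the untreated obese ones. Its other probe set had a like difference (-1.97 ± 0.48, adjusted p = 0.0698). Pygl, the liver glycogen phosphorylase, gave 4429, 4074 and 4980.4 untreated and 2370.1, 1952 and 1424 with troglitazone (2.37-fold lower, log2 -1.25 ± 0.19, adjusted p = 0.00366). Of 29 tested genes for making, using and storing glucose these 2 fell and 0 rose, with a median of -0.13, or -0.20 without troglitazone array 3. Among all 7079 genes 26 rose and 18 fell. The fructose transporter Slc2a5, which is on no list, fell by 0.93 ± 0.18 in log2 (adjusted p = 0.0152), from 1528, 1602 and 1834 to 816, 864 and 884. Pck1, the rate-limiting enzyme of glucose production, was nearly level at 18569, 20640.5 and 17317 untreated and 19739, 20894 and 18858 with troglitazone (0.076 ± 0.13, adjusted p = 0.903). In the fit without troglitazone array 3, Pygl stayed called (-1.05, adjusted p = 0.0226), and Pklr and Slc2a5 were at -1.43 and -0.96 (adjusted p = 0.0655 and 0.054). Leaving out 1 of the 6 arrays at a time ended the call in 0 of 6 fits for Pygl, 2 for Pklr and 3 for Slc2a5.

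Genes of the insulin-like growth factor axis moved in both directions. Igfbp1, a binding protein of IGF1 that insulin represses, gave 1159, 2049 and 1096 untreated and 5473, 15059 and 6556 with troglitazone, with array 2 the highest of all 6 (5.85-fold, log2 2.55 ± 0.42, adjusted p = 0.00556). Irs2, the insulin receptor substrate that insulin also represses, gave 153, 122 and 23.1 untreated and 352, 353 and 396 with troglitazone. Its rise was 1.92 ± 0.42 (adjusted p = 0.03), with untreated array 3 near the floor of the arrays. Igfals, which holds IGF1 in a long-lived complex in blood, gave 1936, 2031 and 2592 untreated and 915, 613 and 798 with troglitazone, a fall (-1.48 ± 0.28, adjusted p = 0.0149). The probe set of Igf1 with a call fell by 1.06 ± 0.21 in log2 (adjusted p = 0.0159), from 11172, 9422 and 9403 to 5753, 5145 and 3646. A brighter probe set of Igf1 was lower by the test's estimate without a call (-0.74, adjusted p = 0.0882, the value by which Igf1 enters the list's count). Eif4ebp3, a brake on cap-dependent translation, gave 488, 490.4 and 1019.8 untreated and 1834, 3274 and 2630.1 with troglitazone (1.97 ± 0.34, adjusted p = 0.00893). Of the 24 genes on the list 2 rose and 1 fell, with a median of -0.057, against 26 and 18 of all 7079 genes. Without troglitazone array 3, Igfbp1, Igfals and Eif4ebp3 stayed called at 2.70, -1.51 and 1.94 (adjusted p = 0.0204, 0.0467 and 0.036), and Irs2 and Igf1 were at 1.87 and -0.87 (adjusted p = 0.129 and 0.118). With each of the 6 arrays left out in turn, the call was lost in 0 of 6 fits for Igfbp1, 1 for Eif4ebp3, 2 for Igfals, 4 for Irs2 and 4 for Igf1.

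On the list of sex-biased and growth hormone-dependent liver genes Igfals fell and Cyp3a2 rose, and 1 probe set of the urinary protein Obp3 also fell. Obp3, a urinary lipocalin made in male rat liver, gave 2241, 3064 and 3440.5 untreated and 445, 977 and 195 with troglitazone (6.24-fold lower, log2 -2.64 ± 0.49, adjusted p = 0.0149). Lean livers gave 10286, 17898 and 13452, far above both obese groups. Another probe set of Obp3, which belongs to a family of near-identical genes, was at -1.26 ± 0.35 (adjusted p = 0.134). Obp3 enters the list's count by this other probe set, without a call. Of 17 tested genes on the list, 14 were below 0, Igfals fell and Cyp3a2 rose, with a median of -0.33, or -0.25 without troglitazone array 3. Among all 7079 genes 26 rose, 18 fell and 46.8% were above 0. When troglitazone array 3 was left out, the first probe set of Obp3 was at -2.09 (adjusted p = 0.0842). Over the 6 fits that leave out 1 array each, calls were lost in 2 of 6 fits for Obp3.

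The other called genes that fell are given one by one. Hsd11b2, which inactivates corticosterone, gave 459, 625 and 346 untreated and 102, 55.8 and 117 with troglitazone (4.48-fold lower, log2 -2.16 ± 0.42, adjusted p = 0.0159). Tsc22d1, a transcription regulator of the leucine zipper family, gave 6547, 3806 and 6708 untreated and 1814, 1888 and 1603 with troglitazone (-1.63 ± 0.26, adjusted p = 0.00408). Ccnd1, the G1 cyclin, gave 757, 695 and 862 untreated and 261, 266 and 348 with troglitazone (-1.35 ± 0.27, adjusted p = 0.0159), while its 2 other probe sets, lower by estimate, were not called (adjusted p = 0.542 and 0.556). It was the 1 call among 13 cell cycle genes, whose median was -0.25. Nrep fell by 2.21 ± 0.42 in log2 (adjusted p = 0.0152), and lean livers gave 2021, 2329.9 and 2604 against 759, 580.4 and 564 untreated and 162, 119 and 89.3 with troglitazone. Tnfaip2, a gene induced by tumour necrosis factor, gave 446, 364 and 536 untreated and 174, 140.3 and 137 with troglitazone (-1.45 ± 0.23, adjusted p = 0.00406). Its 2 other probe sets, dim and below the filter, had means of 65.9 and 59.9 untreated and 88.9 and 79.5 with troglitazone. Falls were also called for the DNA repair protein Mgmt (-1.31 ± 0.25, adjusted p = 0.0152), the endocytic receptor Lrp2 (-1.29 ± 0.29, adjusted p = 0.0363), Elapor1 (-1.20 ± 0.23, adjusted p = 0.0152) and the mannose-binding lectin Mbl2 (-0.91 ± 0.20, adjusted p = 0.0396). The 2 other calls among falling named genes were Fahd1, an acylpyruvase of mitochondria (-1.06 ± 0.21, adjusted p = 0.0195), and C8h11orf71 (-1.02 ± 0.20, adjusted p = 0.0159). Mbl2 was the 1 call among 43 acute phase and plasma proteins, whose median was -0.16, while 18 of all 7079 genes fell. In the fit without troglitazone array 3, Tsc22d1, Tnfaip2, Mgmt, Hsd11b2 and Ccnd1 stayed called (adjusted p = 0.0258, 0.0226, 0.0262, 0.0349 and 0.0349), and Nrep, Lrp2, Elapor1 and Mbl2 were above the threshold (adjusted p = 0.0842, 0.107, 0.0655 and 0.172). Leaving out 1 of the 6 arrays at a time ended the call in 0 of 6 fits for Tsc22d1, 0 for Tnfaip2, 3 for Mgmt, 3 for Hsd11b2, 3 for Elapor1, 4 for Ccnd1, 4 for Nrep, 4 for Mbl2, 4 for C8h11orf71, 5 for Lrp2 and 5 for Fahd1.

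The other called genes that rose are likewise given singly. Slc1a2, a glutamate transporter, gave 16.9, 134 and 89.4 untreated and 439, 596 and 437 with troglitazone (2.57 ± 0.43, adjusted p = 0.00623), and untreated signals are near the floor. Its other probe set, below the filter on low values and not tested, had means of 52.7 untreated and 54.6 with troglitazone, so the 2 probe sets disagree. Asl, the argininosuccinate lyase of the urea cycle, rose on both of its probe sets, by 1.05 ± 0.19 and 0.92 ± 0.19 (adjusted p = 0.0115 and 0.0194), and was the 1 call among 8 urea cycle genes. One probe set of the chaperonin subunit Cct6a rose by 2.01 ± 0.38 (adjusted p = 0.0152), from 197, 189 and 68.8 to 559, 539 and 799.5, while a brighter one was at 0.16 ± 0.22 (adjusted p = 0.876), so the 2 disagree. Among 29 genes of endoplasmic reticulum stress and chaperones 0 were called on their brightest probe sets, with a median of 0.043 and 10 at an unadjusted p under 0.05. Of all 7079 genes 26 rose and 9.97% had such a p. A dimmer probe set of the cytosolic chaperone Hsp90ab1 rose by 0.86 ± 0.17 (adjusted p = 0.0159), and the brighter one was at 0.57 (adjusted p = 0.149). Guanine deaminase Gda (0.89 ± 0.17, adjusted p = 0.0159) and the growth arrest RNA Gas5 (1.17 ± 0.25, adjusted p = 0.0292) also rose. The largest rise of all was on a probe set annotated to more than 1 gene, which is not named here. It gave 849, 2497 and 897 untreated, with array 2 the highest, and 7994, 11814 and 13341 with troglitazone (8.58-fold, log2 3.10 ± 0.38, adjusted p = 0.000272). That probe set stood at 2.95 (adjusted p = 0.0034) without troglitazone array 3, and both probe sets of Asl and that of Slc1a2 stayed called (adjusted p = 0.0204, 0.0217 and 0.0258). Cct6a, Gda, Gas5 and Hsp90ab1 were then above the threshold (adjusted p = 0.0842, 0.076, 0.181 and 0.0915). With each of the 6 arrays left out in turn, the call was lost in 0 of 6 fits for Slc1a2, 2 for Asl, 2 for Cct6a, 4 for Gda, 4 for Gas5 and 4 for Hsp90ab1.

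Lists of other functions held 0 called genes in the limma test. Of 64 tested genes for the citrate cycle and the respiratory chain, 45 were below 0, with a median of -0.12 and 11 at an unadjusted p under 0.05, 10 of them lower. For 37 genes of amino acid breakdown the median was -0.13 with 9 at an unadjusted p under 0.05, and for 20 of branched-chain amino acid breakdown 0.18 with 4. Interferon response genes (23 tested) had a median of -0.035 and 6 at an unadjusted p under 0.05, inflammatory cytokines and chemokines (18 tested) -0.028 and 2, immediate early genes (16 tested) 0.19 and 2, and clock genes (12 tested) 0.044 and 4. Proteasome subunits (24 tested) had a median of 0.11 and 0 at that p, and lysosomal genes (24 tested) 0.015 and 3. Leaving out troglitazone array 3 called 1 gene of these lists, the aminotransferase Got1, which was then higher. Over all 7079 genes 9.97% had an unadjusted p under 0.05 and 46.8% were above 0.

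The comparison with the other ligands asks whether liver under troglitazone differed from liver under the other PPARgamma agonists. Pioglitazone and rosiglitazone share the thiazolidinedione ring with troglitazone and lack its chroman ring. Doses are not given, so these are the values of these groups and not a comparison at matched dose. With 3 pairs compared, 0 of 9519 probe sets (0%) differed between troglitazone and pioglitazone by limma, with 497 at an unadjusted p under 0.05, and 0 (0%) between troglitazone and AG035029, with 645. Against rosiglitazone 1 (0.0105%) was called, with 482 at an unadjusted p under 0.05. It is an unnamed probe set, which gave 51.9, 65.1 and 67.7 with troglitazone and 290.4, 299.7 and 295 with rosiglitazone, a difference of -1.96 (-2.60 to -1.31) with its 95% interval (adjusted p = 0.0311). That call was lost when p-values were adjusted over the 3 pairs together, and without troglitazone array 1 or 3 or rosiglitazone array 2 or 3. A count near 0 does not show that the ligands act alike, since the 95% interval of a difference reached 0.55 to either side at the median.

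For the genes that rose most, values under the ligands are set side by side, and the 4 comparisons with untreated liver share the same 3 untreated arrays. Cyp3a2 had group means of 9366 with troglitazone, 3118 with pioglitazone, 4609 with rosiglitazone and 4817 with AG035029. Troglitazone minus pioglitazone was 1.56 (0.46 to 2.66) in log2 for Cyp3a2, minus rosiglitazone 1.18 (0.084 to 2.28) and minus AG035029 1.13 (0.026 to 2.22), each with its 95% interval (adjusted p = 0.751, 0.967 and 0.735). Por had means of 6639.7, 4519.9, 3491 and 3819.8 in the same order. Its differences were 0.55 (-0.036 to 1.13), 0.97 (0.39 to 1.56) and 0.80 (0.22 to 1.38) (adjusted p = 0.954, 0.619 and 0.624). Tm7sf2 had means of 6242, 3803, 3341 and 3683. Its difference from rosiglitazone, 0.90 (0.57 to 1.23), came nearest to the threshold of its 3 (adjusted p = 0.0797). Fmo1 had means of 2546, 1504, 1508 and 1696, and Igfbp1 9029.6, 5647, 6549 and 6176. The fall of Tnfaip2 was -1.45 with troglitazone, against -0.15, -0.32 and -0.72 with the others, with a difference from pioglitazone of -1.30 (-1.78 to -0.82) (adjusted p = 0.141). These genes were picked for their values on the troglitazone arrays, so the direction of their differences from other ligands is not independent of that choice.

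The comparison of tissues asks which transcripts responded to troglitazone differently in liver than in adipose tissue or muscle. The difference of the effects was tested in 1 limma fit of all 54 arrays. That fit used group means only and took the arrays of the 3 tissues as independent, whether or not they came from the same rats. For liver against adipose tissue 333 of 9519 probe sets (3.5%) were called, 126 with a higher effect in liver and 207 with a lower one, and centring each array on its median gave 84 and 232. For liver against muscle 125 (1.31%) were called, 34 higher and 91 lower. Leaving out the liver's troglitazone array 3 gave 241 (87 higher, 154 lower) and 97 (25 higher, 72 lower). Of the 63 probe sets called in liver 55 were in this table, and 23 of them differed from adipose tissue, 17 from muscle and 9 from both. Fmo1 had an effect of 1.99 ± 0.23 in liver, 0.17 ± 0.23 in adipose tissue and 0.18 ± 0.23 in muscle, and both differences were called (adjusted p = 0.00048 and 0.000591). Igfbp1 differed by 2.99 ± 0.66 from adipose tissue and 2.85 ± 0.66 from muscle (adjusted p = 0.00534 and 0.0145). Tsc22d1 fell in liver and was at 0.39 ± 0.20 in adipose tissue and 0.31 ± 0.20 in muscle (adjusted p of the differences = 1.08e-05 and 2.32e-05). Elovl5 was at -0.95 ± 0.24 in liver and 1.08 ± 0.24 in muscle (adjusted p = 0.00016). Por differed from adipose tissue by 1.50 ± 0.42 (adjusted p = 0.0299) and from muscle by 1.50 ± 0.42 (adjusted p = 0.0546). Other genes called in liver had like estimates in adipose tissue. Tnfaip2 was at -1.45 in liver and -1.38 in adipose tissue, Ccnd1 at -1.35 and -1.19, and Lrp2 at -1.29 and -1.50. Decr2 was at 0.94 and 1.03 (adjusted p of the differences = 0.97, 0.945, 0.948 and 0.968). A difference without a call does not show that 2 effects are equal. Cyp3a2, Nr1i3, Igfals, Obp3, Acot4 and Slc1a2 were below the filter across the 3 tissues and not tested there.

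Transcripts of fat cells moved with the muscle comparison. Fabp4 gave 2537, 5139 and 2982 on the untreated obese muscle arrays and 27776, 23709 and 14221 on the troglitazone muscle arrays. The summed signal of 10 adipocyte markers was 15886 to 39077 in untreated and 47295 to 74823 in troglitazone-treated muscle. By group, Fasn had means of 439 and 6968 and Pck1 154 and 2247, while in liver Pck1 had 18842 and 19830.5. The part of fat cells in the lower liver effects for such genes was not tested. Without troglitazone array 3, Fmo1 and Tsc22d1 kept both calls, and so did Igfbp1 (3.15 and 3.01, adjusted p = 0.00925 and 0.0181). Fmo1 and Tsc22d1 had differences of 1.74 and -1.95 from adipose tissue and 1.73 and -1.87 from muscle. Elovl5 kept its call against muscle (-2.04, adjusted p = 0.000616), and Por was above the threshold against adipose tissue (1.44, adjusted p = 0.0718).

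**Figure D5:**
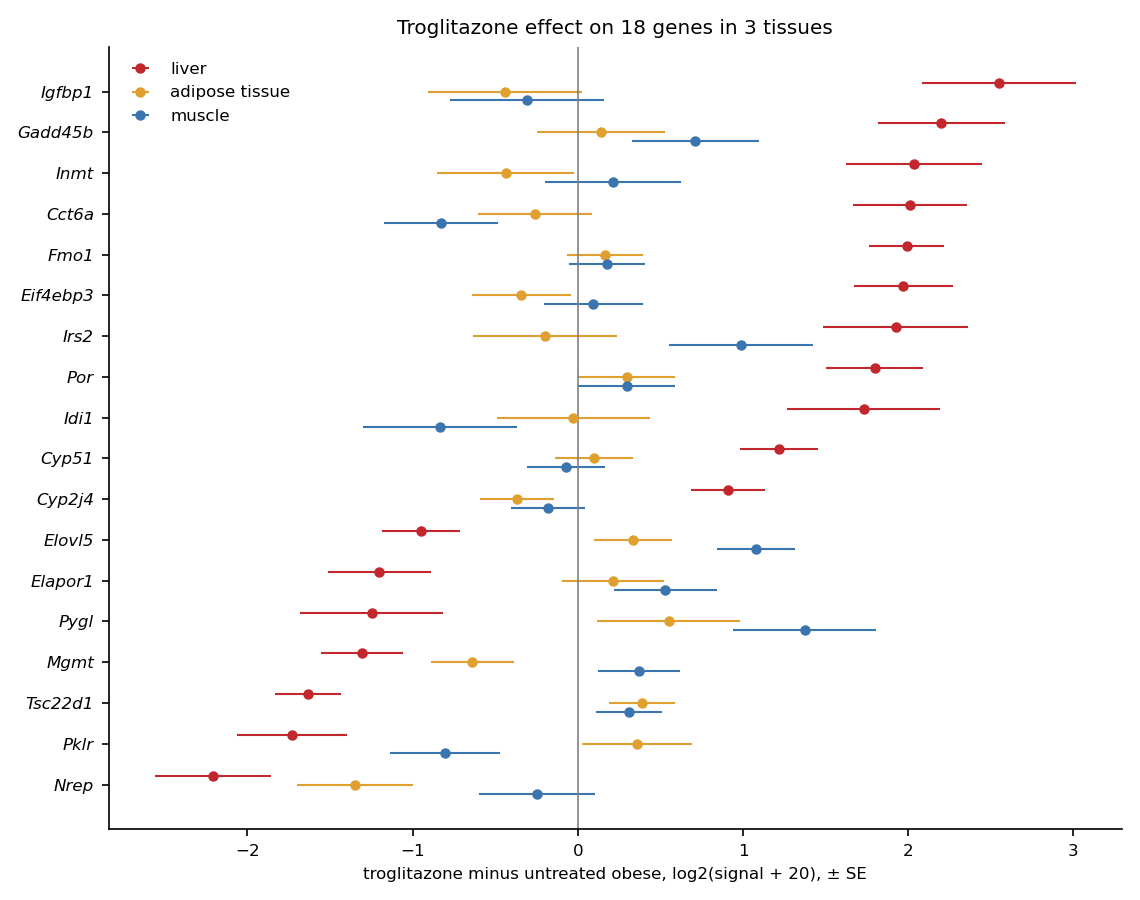
Troglitazone effect, as the difference in log2(signal + 20) from untreated obese rats with its standard error, in liver, adipose tissue and muscle for 18 genes called in liver. Each of the 18 also differed from adipose tissue or muscle at a limma adjusted p below 0.05, so they do not stand for all called genes. Called genes with like effects elsewhere, such as Tnfaip2 (-1.45 in liver, -1.38 in adipose tissue), are not shown. Fmo1, at 1.99 ± 0.23 in liver and 0.17 ± 0.23 in adipose tissue, and Igfbp1 lie apart from the other tissues, and Nrep and Mgmt are below 0 in adipose tissue too.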

How the data were processed

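RNA was hybridised to 54 Affymetrix Rat Expression Set 230A arrays. The authors deposited linear intensities; MAS5 is named, with no version, in the submitters' processing notes. Each array has a mean of 500 once 2% is trimmed from either end, so none was rescaled here. The array has 15923 probe sets, and 57 controls were dropped. The remaining 15866 comprise 12783 with 1 symbol, which are named here, 312 with several and 2771 with none.

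Analysis used log2(signal + 20), which understates changes of dim probe sets, and kept the 9519 probe sets whose mean exceeded the 40th percentile. The 18 liver arrays were fitted together with limma 3.58.1 in R 4.3.3 (lmFit, then eBayes with trend), leaving 12 residual degrees of freedom, and tissue differences came from a fit of all 54 (36 degrees of freedom). Every p-value is limma's, two-sided, and adjusted by Benjamini-Hochberg over all tested probe sets at a threshold of 0.05. Values after ± are standard errors in log2 units (n = 3 arrays per group), and a fold is 2 raised to that difference. Lists count each gene on its brightest probe set. Median signals of the liver arrays ran from 201 to 248; the number of arrays limits the precision.

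The rule for named genes took 12 rises and 12 falls of largest size from called probe sets with 1 symbol, no overlap of arrays and a mean of at least 100 in the higher group. It added up to 4 members of each list other than marker lists by smallest adjusted p, up to 5 per direction from each other comparison, and a set of PPAR, PXR and metabolic genes. Members and the 43 lists were chosen with earlier results of these data known. Alternatives varied the pseudocount (5, 80), the filter (none, 60th percentile), the scaling (quantile, median), the trend, the weights, the replicate block, the arrays in the fit and each array in turn. The fit was tested on simulated data. Promoters are RefSeq's, build GRCr8.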

Additional observations from a re-analysis of the deposited data

Results flagged for a closer look

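The results here are genes whose troglitazone effect in liver differed from that in another tissue in the joint limma fit, given as the difference in log2 effect (liver minus the other tissue). They were the 5 with the smallest p in each direction.

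Against adipose tissue the effect in liver was higher for Cyp1b1 (3.33), Tmem176b (1.97), Dnase1l3 (1.61), Clu (1.83) and Fmo1 (1.82). Of these, Fmo1 was called within liver. Cyp1b1, a P450 that oxidises oestrogens and fatty acids, had an effect of -3.28 ± 0.25 in adipose tissue and 0.047 ± 0.25 in liver. The effect in liver was lower for Alb (-5.09), Fabp3 (-4.89), Etfdh (-1.71), Tsc22d1 (-2.02) and Cmbl (-1.44). Alb, the albumin gene, had mean signals of 276 untreated and 8029 with troglitazone in adipose tissue, against 95294 and 76503 in liver. The summed signal of 16 hepatocyte markers in adipose tissue was 1669.9 to 1888 untreated and 7077 to 10371 with troglitazone, and its part in the Alb difference was not tested.

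Against muscle the effect in liver was higher for Cct6a (2.84), Fmo1 (1.81), Kif3c (2.81), Ltv1 (2.64) and Tcp1 (0.86). Cct6a, Kif3c, Ltv1 and Tcp1 were at -0.83, -1.07, -1.53 and -0.34 in muscle and at 2.01, 1.74, 1.10 and 0.52 in liver. Kif3c had an untreated liver mean of 28.5, near the floor, and a brighter probe set of Cct6a was at 0.16 in liver. The effect in liver was lower for Scd (-6.10), Rbp7 (-4.54), Thrsp (-5.18), Pparg (-3.16) and Tsc22d1 (-1.94). Scd, Rbp7, Thrsp and Pparg had effects of 4.04 ± 0.50, 4.82 ± 0.40, 4.19 ± 0.46 and 2.18 ± 0.30 in muscle, where fat cell markers were also higher on the troglitazone arrays. All 20 differences kept an adjusted p below 0.05 (limma) without troglitazone array 3.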

How the results depend on the processing

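Calls for troglitazone against untreated obese liver (63) moved with the variance model and the arrays in the fit: 19 without the trend, 34 with only the 6 compared arrays, and 20 to 96 with 1 array left out. Other alternatives gave 52 to 78, among them the replicate block (68). All 39 named called probe sets kept their direction in every alternative, and 7 kept their call in every alternative: Igfbp1, Fmo1, Por, Tsc22d1, Tnfaip2, Pygl and Tm7sf2. Against pioglitazone (0) there were 2 without the trend, 1 with array weights, 1 with only the compared arrays and 0 to 1 with 1 array left out. Against rosiglitazone (1) there were 0 with no filter, the 60th percentile filter, array weights, only the compared arrays or adjustment over the 3 pairs, 2 with the replicate block and 0 to 2 with 1 array left out. Against AG035029 (0) there was 1 without the trend. Liver against adipose tissue (333) stayed within 1.5 times, at 241 to 337 with 1 array left out, and liver against muscle (125) gave 55 with array weights, 29 with only the compared arrays and 97 to 141 with 1 array left out. Fewer arrays and residual degrees of freedom enter the fits of only the compared arrays; elsewhere the cause was not tested. Of 2 genes without a call that turned sign with 1 array left out, Angptl4 ran from -0.29 to 0.34 and Hmox1 from -0.057 to 0.39. Same-numbered arrays of the 2 groups had residual correlations of -0.0097, 0.11 and 0.072, and the main fit pairs no arrays. With 3 arrays per group these values cannot show whether same-numbered arrays share a batch. The alternative without AG035029 array 1 and rosiglitazone array 2, which stood apart on principal components, was chosen after seeing the data (78 calls). The precision is limited by 3 arrays per group.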

Other observations

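Genes of the daily clock and of heat shock, named after their values were seen, had wide ranges among the troglitazone arrays. Dbp, a clock output factor, gave 903, 1265 and 854 untreated and 1135, 532 and 125 with troglitazone, and Nr1d1, the clock repressor REV-ERBalpha, 480.4, 277 and 406 and 392, 137 and 74.2 (-1.16 ± 0.54 and -1.13 ± 0.53, limma adjusted p = 0.488 and 0.496). Both were lowest on troglitazone array 3 and within the untreated range on array 1. The small heat shock protein Hspb1 gave 32.9, 228 and 37.8 untreated and 192, 795 and 1579 with troglitazone (2.84 ± 0.73, adjusted p = 0.0944), highest on array 3, which also held the muscle transcripts. Their part in it was not tested, and without that array it was at 2.19 (adjusted p = 0.416).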
